A study of Homo sapiens with 6 samples.

Results

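Chromatin accessibility was examined around the genes that encode chromatin remodelers and histone modifiers in A375 cells, an established human melanoma cell line. The genes were the 63 protein-coding genes of GENCODE release 44 whose symbols begin with SMARC, or with CHD, KMT, KDM or HDAC followed by a number. A peak belonged to one of these genes when its centre lay in the gene body, or when it lay between genes and the nearest protein-coding gene start was that of the gene. By this rule 586 of the 152800 peaks were members, 584 of which passed the filter on low counts, among 150117 tested peaks in all. Of the 63 genes, 62 had at least 1 peak and 61 at least 1 tested peak: KDM4E had no peak, and the single peak of KDM4F and 1 peak of CHD6 were too weak to be tested. CHD9NB met the symbol rule but is named only as a neighbour of CHD9, so the counts are also given without it, an alternative chosen after seeing the data. The centres of 34 member peaks lay in a further protein-coding gene model as well.

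Transposase-accessible DNA was sequenced (ATAC-seq) in 6 libraries: 3 from cells carrying an empty vector and 3 from cells overexpressing HMGB2 (HMGB2OE), an architectural high mobility group protein that binds DNA with little sequence preference. Both are derivatives of the same A375 line, and the overexpressing cells came from lentiviral delivery and antibiotic selection, so each condition is 1 stable population. The study describes its 3 libraries per condition as technical replicates of an experiment that was not repeated, so every p-value measures the spread between these libraries only. Between 26910189 and 45645294 reads per library fell in peaks. Of 7 melanocyte lineage genes, MITF, SOX10, PMEL and S100B had start-site peaks of 463 to 1295 normalised counts, and MLANA, TYR and DCT had none in the peak list. PTPRC and ALB had none either, while EPCAM, KRT5, KRT14, CD3E and RBFOX3, genes of other cell types, had start-site peaks of 123 to 587 counts. Start-site accessibility in this list therefore did not separate the lineage markers from the others. The study called its peaks against a melanocyte dataset as control, and how that bears on the missing lineage genes was not tested.

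The genes fall into 5 families, most of whose products act on nucleosomes in different ways. SMARC genes encode the ATPases and subunits of the BAF (SWI/SNF) complexes, the related ISWI and SMARCAD1 enzymes, and SMARCAL1, a related ATPase. All but SMARCAL1 belong to machines that use ATP to slide, eject or reposition nucleosomes. CHD genes encode a second class of such motors, among them the NuRD ATPases CHD3, CHD4 and CHD5. KMT genes encode histone lysine methyltransferases, KDM genes the enzymes that remove lysine methyl groups, and HDAC genes the zinc-dependent deacetylases that remove acetyl groups, usually within corepressor complexes. Most are expressed in nearly every cell type, with CpG-rich promoters that are open in most tissues.

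The regions on which the results turn are shown as the central 300 bases of the peak, from the plus strand of hg38. They comprise the 3 called falls and 2 called rises with large changes described in the next paragraphs, and 1 smaller rise near SMARCA2, shown because it held several copies of the AP-1 word. Capitals mark the AP-1 word TGANTCA, read on both strands, and the other letters are in lower case. The first 5 stretches held no such word.
CHD2 intron, lower, chr15:92906727-92907026: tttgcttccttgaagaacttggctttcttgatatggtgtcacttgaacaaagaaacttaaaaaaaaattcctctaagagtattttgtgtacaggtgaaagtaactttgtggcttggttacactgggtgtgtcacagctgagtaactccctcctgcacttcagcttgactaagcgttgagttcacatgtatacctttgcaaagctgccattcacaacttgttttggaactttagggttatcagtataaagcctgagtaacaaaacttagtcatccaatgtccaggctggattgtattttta
SMARCC1 intron, lower, chr3:47617758-47618057: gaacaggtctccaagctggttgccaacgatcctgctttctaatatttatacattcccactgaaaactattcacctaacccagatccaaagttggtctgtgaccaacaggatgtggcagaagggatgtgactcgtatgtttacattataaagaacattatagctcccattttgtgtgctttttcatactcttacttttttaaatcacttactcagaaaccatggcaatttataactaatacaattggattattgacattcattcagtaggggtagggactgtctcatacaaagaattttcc
HDAC9 intron, lower, chr7:18429574-18429873: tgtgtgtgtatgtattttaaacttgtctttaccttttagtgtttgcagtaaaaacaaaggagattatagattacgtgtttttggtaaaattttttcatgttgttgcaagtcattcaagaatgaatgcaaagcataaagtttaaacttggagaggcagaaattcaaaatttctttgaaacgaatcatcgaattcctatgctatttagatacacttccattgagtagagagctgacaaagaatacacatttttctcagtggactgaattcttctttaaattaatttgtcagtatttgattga
HDAC8 intron, higher, chrX:72381993-72382292: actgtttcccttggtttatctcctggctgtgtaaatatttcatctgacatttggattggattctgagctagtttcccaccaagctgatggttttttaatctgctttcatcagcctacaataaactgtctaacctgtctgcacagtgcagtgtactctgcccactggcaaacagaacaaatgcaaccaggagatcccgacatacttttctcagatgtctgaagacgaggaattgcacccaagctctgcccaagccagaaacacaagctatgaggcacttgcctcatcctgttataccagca
HDAC4 intron, higher, chr2:239251931-239252230: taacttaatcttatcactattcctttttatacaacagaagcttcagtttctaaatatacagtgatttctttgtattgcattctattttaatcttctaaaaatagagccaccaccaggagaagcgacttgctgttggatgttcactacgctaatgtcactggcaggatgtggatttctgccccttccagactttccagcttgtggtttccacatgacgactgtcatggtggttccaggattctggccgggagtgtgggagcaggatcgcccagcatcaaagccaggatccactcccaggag
SMARCA2 intergenic, adjusted p only, chr9:2260687-2260986: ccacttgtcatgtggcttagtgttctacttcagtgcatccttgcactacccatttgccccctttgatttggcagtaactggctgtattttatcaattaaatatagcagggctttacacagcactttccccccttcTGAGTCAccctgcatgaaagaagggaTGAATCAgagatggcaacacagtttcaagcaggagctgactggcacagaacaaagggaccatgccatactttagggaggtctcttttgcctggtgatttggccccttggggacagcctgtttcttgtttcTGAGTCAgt
The SMARCA2 stretch held 3 AP-1 words. Among all member peaks, 33.2% held the word in the whole 502 base peak, against 36.4% of all tested peaks. It was found in 3 of the 14 called member peaks. With no fold limit, 15 member peaks passed the adjusted p as higher and 15 as lower. Of these, 33.3% and 40% held the word, against 43.3% and 54.9% of all tested peaks past it. The words CCGGAAGT (ETS) and GCGCATGC (NRF1) were in none of the 14, and were in 1.20% and 1.54% of the member peaks, against 1.19% and 1.17% of all tested peaks. CCAAT was in 10 of the 14 and in 49.3% of the member peaks, against 48.2% overall. Past the adjusted p with no fold limit, it was in 46.7% of the members higher and 73.3% of those lower. Of all tested peaks past it, 49.1% and 51.5% held CCAAT. The member shares rest on few peaks, and the differences were not tested. The words do not overlap one another, and a match describes letters only.

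Few of these regions differed between the conditions, and about as many were lower as higher in HMGB2OE cells. A peak was called when edgeR's quasi-likelihood test gave a Benjamini-Hochberg-adjusted p under 0.05 over all tested peaks and the fold change was at least 1.5. Among the 584 member peaks, 6 (1.03%) were called higher, where 1.87% of all tested peaks were, and 8 (1.37%) were called lower, where 1.44% were. The 14 called peaks lay in 11 genes. With no fold limit, the test was passed by 15 member peaks (2.57%) in the upward direction and by 15 (2.57%) in the downward one, against 3.44% and 3.03% of all tested peaks, and these 30 peaks lay in 20 genes. The median log2 fold change (HMGB2OE over empty vector) was -0.02 over the members and -0.00 over all tested peaks. Without CHD9NB, 5 of 574 peaks were called higher and 8 lower. Taken over all members, these shares were near or below those of all tested peaks, and the shares called lower (1.37% against 1.44%) were nearly equal. They rest on few peaks, and the difference was not tested. In bulk libraries, a site open in fewer cells and a site less open in every cell cannot be told apart.

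The families differed in their counts. HDAC genes held 8 of the 14 called peaks, 5 higher (3.6%) and 3 lower among 139 tested, both shares above the 1.87% and 1.44% of all tested peaks. These shares rest on few genes: HDAC4 held 3 of the rises and HDAC9 2 of the falls. A called peak in each of HDAC4, HDAC9, HDAC1 and HDAC2 lost its pass when at least 1 library was left out. CHD genes held 1 higher, the CHD9NB peak, and 2 lower among 139. KDM genes held 2 lower among 155, SMARC genes 1 lower among 82, and KMT genes none among 69. With no fold limit, the KMT genes had 1 peak higher and 1 lower, both of KMT2C. The difference between families was not tested. Family medians ran from -0.06 for KMT to 0.00 for CHD.

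**Figure D1:**
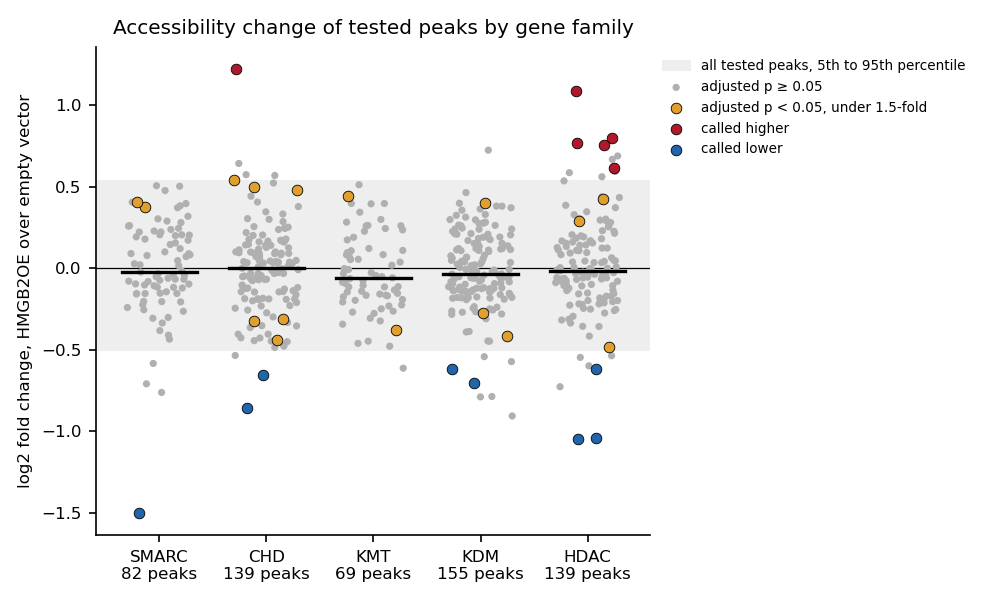
Log2 fold change (HMGB2OE over empty vector, vertical axis) of the 584 tested member peaks, 1 point per peak, by gene family with black bars at the family medians; the grey band spans the 5th to 95th percentile of all tested peaks, from -0.50 to 0.54. Most points lie inside the band, and the 6 peaks called higher (red) and 8 called lower (blue) lie outside it.

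The 14 called peaks lay mostly in introns, where 348 of the 584 tested member peaks and 65701 of the 150117 tested peaks in all lay. Within 3 kb of a transcript start were 3 of the 14 (21.4%), where 27.2% of the tested member peaks and 19.7% of all tested peaks lay. Of the 6 called higher, 4 were in introns and 2 were intergenic. Of the 8 called lower, 7 were in introns and 1 was in a coding exon. The libraries of the conditions did not overlap at any of the 14. The same test on the same libraries picked these peaks, so that separation adds no support. Of all tested peaks past the adjusted p, the libraries lay apart at 98.4% of those higher and 97.4% of those lower. Over all member peaks the libraries lay apart with HMGB2OE higher at 73 (12.5%) and lower at 73 (12.5%), against 12.6% and 12.5% of all tested peaks. The median GC content was 47.0% in the 6 peaks called higher and 37.4% in the 8 called lower. With no fold limit the medians were 47.8% and 39.8% in the members, against 48.0% and 41.8% in all tested peaks past the same threshold. With offsets for GC content in the fit, 4 member peaks were called higher and 7 lower, and 11 of the 14 calls were kept.

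**Figure D2:**
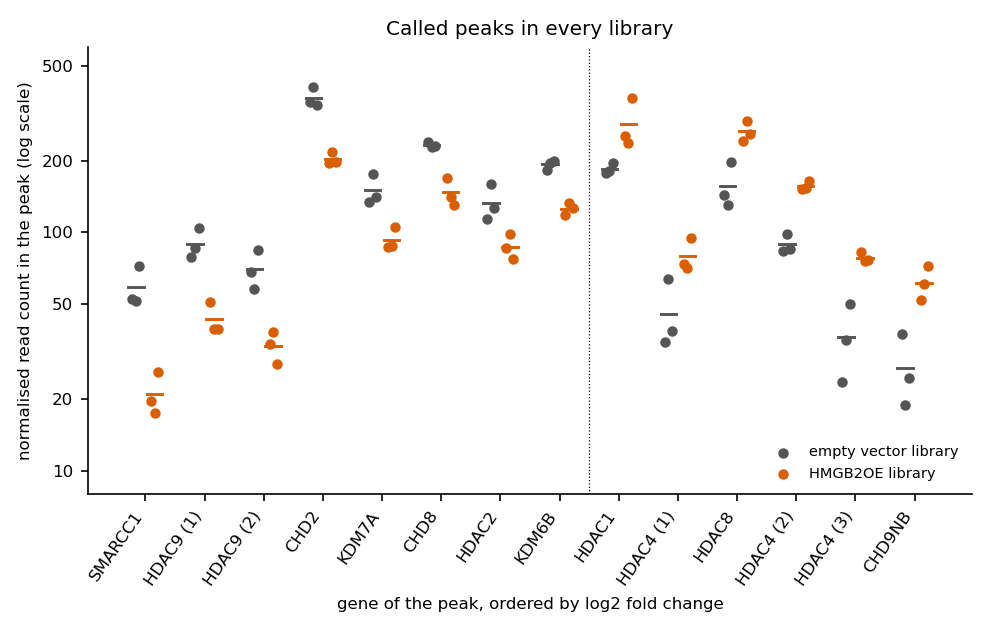
Normalised read count (vertical axis, log scale) of the 14 called peaks in each of the 3 empty vector (grey) and 3 HMGB2OE (orange) libraries, with short bars at the means, ordered by log2 fold change from SMARCC1 at the left to CHD9NB at the right. Bracketed numbers tell apart peaks of the same gene, and at every peak the 3 libraries of one condition lie above the 3 of the other.

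Among the ATP-dependent remodelers, the deepest fall was in SMARCC1, a core scaffold subunit of the BAF complexes. Its intronic peak at chr3:47617657-47618158, whose centre was 164.2 kb downstream of the gene start, had normalised counts of 52.8, 51.6 and 72.6 in the empty vector libraries and 19.6, 17.5 and 25.9 in the HMGB2OE libraries. All HMGB2OE values were under all empty vector values, and the log2 fold change was -1.50 (SE 0.30, adjusted p = 0.00212). The count was low, and CSPG5 had the nearest gene start, 37.1 kb away. The other 10 tested SMARCC1 peaks did not pass the test, and the strongest peak at its promoter had a log2 fold change of -0.12 (SE 0.07, adjusted p = 0.4). The median over tested peaks of other genes within 1 Mb of the intronic peak was 0.04.

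CHD2, a remodeler of the CHD family needed for normal neuronal development, carried the call with the lowest adjusted p. Its peak at chr15:92906626-92907127, in an intron 20.7 kb from the gene start and 2.40 kb downstream of the nearest transcript start, had counts of 351.6, 407.8 and 344.0 in empty vector and 195.5, 218.5 and 197.0 in HMGB2OE libraries. No HMGB2OE library reached the empty vector range, and the log2 fold change was -0.86 (SE 0.12, adjusted p = 4.21e-05). A peak 1.2 kb further downstream (chr15:92907824-92908325) was at 639 ± 38.3 (SD, n = 3) and 510 ± 34.4 (SD, n = 3), a log2 fold change of -0.32 (adjusted p = 0.0339). Another peak, 95.4 kb from the gene start, had -0.31 (adjusted p = 0.0488), with libraries of the conditions overlapping. Those smaller changes were under the 1.5-fold limit. The former kept its pass only without empty vector replicate 3 and the latter only without empty vector replicate 1, with adjusted p of 0.071 to 0.131 and 0.0675 to 0.19 without each other library. Of the 17 CHD2 peaks, 13 had a log2 fold change below 0. The 10 peaks between 10 and 40 kb from the gene start were all below 0, from -0.86 to -0.14, a stretch chosen after the values were seen. The strongest promoter peak of CHD2, at a mean of 1959 counts, had -0.14 (SE 0.07, adjusted p = 0.247), and other genes' peaks within 1 Mb had a median of 0.09. Summed over the 17 peaks, CHD2 was at 7403 to 7500 counts in empty vector and 6846 to 6943 in HMGB2OE libraries. The log2 fold change was -0.11 (SE 0.04, adjusted p = 0.0525), not past the threshold.

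CHD8, a remodeler that represses Wnt target genes and is often mutated in autism, fell at a peak over a coding exon (chr14:21408080-21408581), 1.56 kb downstream of a transcript start. The CHD8 gene start was 47.8 kb away, and SUPT16H had the nearest gene start, at 24.3 kb. Counts were 239.0, 228.9 and 230.5 in empty vector and 170.0, 141.0 and 130.6 in HMGB2OE libraries, with no overlap. The log2 fold change was -0.65 (SE 0.13, adjusted p = 0.00256). It was -0.58 without HMGB2OE replicate 3, past the adjusted p but under 1.5-fold. Both other CHD8 peaks were below 0 and did not pass the test. The only call among the CHD symbols in the other direction was an intergenic peak of CHD9NB (chr16:52929705-52930206), at 27.0 ± 9.53 (SD, n = 3) and 61.6 ± 10.1 (SD, n = 3) counts. Its log2 fold change was 1.22 (SE 0.29, adjusted p = 0.00858), and the adjusted p was 0.0636 without empty vector replicate 2 and 0.0511 without HMGB2OE replicate 3.

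Several other remodeler peaks passed the adjusted p under the fold limit. SMARCA2, which encodes an alternative BAF ATPase to SMARCA4, had an intergenic peak at chr9:2260586-2261087, 280.5 kb downstream of the gene start, where the printed AP-1 words lie. Its counts were 458.6, 461.2 and 459.9 in empty vector and 655.4, 565.5 and 611.3 in HMGB2OE libraries, and the log2 fold change was 0.41 (SE 0.09, adjusted p = 0.0079, or 0.0803 without HMGB2OE replicate 1). A second intergenic peak at chr9:2241713-2242214, 261.7 kb downstream, rose from 338 ± 21.5 to 437 ± 15.7 (SD, n = 3 each), a log2 fold change of 0.37 (adjusted p = 0.0258). That pass held only without empty vector replicate 1, and the adjusted p was 0.0547 to 0.0985 without each of the other libraries. Both lay beyond the 3′ end of the gene, at a place where other genes' peaks within 1 Mb had a median of 0.14. CHD1, a remodeler tied to transcribed chromatin, had 33 tested peaks, 26 of them intergenic. One of these, 76.7 kb upstream, was at 0.54 (SE 0.12, adjusted p = 0.00504), and was past 1.5-fold without empty vector replicate 3 (0.64) or HMGB2OE replicate 1 (0.60). CHD7, a regulator of neural crest genes, had a peak over a coding exon at 0.50 (SE 0.12, adjusted p = 0.013, or 0.108 without empty vector replicate 2 and 0.0624 without HMGB2OE replicate 1). CHD6 had an intronic peak at 0.48 (adjusted p = 0.0417), which was not past the threshold without empty vector replicate 1 (0.152) or 3 (0.0961) or HMGB2OE replicate 1 (0.0961) or 2 (0.204). CHD1L, a remodeler recruited to DNA damage, had an intronic peak at -0.44 (SE 0.11, adjusted p = 0.0151), or 0.0875 without empty vector replicate 2, 0.0557 without HMGB2OE replicate 1 and 0.0506 without replicate 2. Over all members, 20 of the 30 peaks past the adjusted p lost that pass when at least 1 library was left out.

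Among the deacetylases, HDAC9 and HDAC4, class IIa enzymes that shuttle between cytoplasm and nucleus and bind MEF2 factors, had calls in opposite directions. HDAC9 spans 915 kb and had 43 tested peaks, the most of any member. A pair of called peaks lay close together in an intron about 340.0 kb from the gene start. The first, at chr7:18429473-18429974, had counts of 79.2, 86.0 and 104.1 in empty vector and 51.0, 39.2 and 39.4 in HMGB2OE libraries, a log2 fold change of -1.05 (SE 0.22, adjusted p = 0.00298). The second, at chr7:18426684-18427185, was at 70.0 ± 13.4 and 33.5 ± 5.13 (SD, n = 3 each), a log2 fold change of -1.04 (SE 0.25, adjusted p = 0.0102), with an adjusted p of 0.068 without empty vector replicate 3. Both were lower in every HMGB2OE library than in any empty vector library.

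The strongest promoter peak of HDAC9 (chr7:18508878-18509379) was at an internal start site, 422.2 kb from the gene start and 0.145 kb from the start of a shorter transcript. Its counts were 1280.0, 1348.2 and 1314.1 in empty vector and 1043.0, 987.5 and 782.4 in HMGB2OE libraries. All HMGB2OE libraries were lower, and the log2 fold change was -0.48 (SE 0.09, adjusted p = 0.00118), under the 1.5-fold limit. Of the 43 peaks, 30 had a log2 fold change below 0. Between 300 and 700 kb from the gene start, a window chosen after the values were seen, 17 of 19 were below 0, with a median of -0.25. Upstream of this window 7 of 13 were below 0 and downstream of it 6 of 11. Other genes' peaks within 1 Mb of the promoter peak had a median of 0.08.

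HDAC4 spans 353 kb and had 31 tested peaks, 3 of them called higher. The intronic peak at chr2:239298383-239298884 had counts of 83.4, 98.9 and 85.4 in empty vector and 152.2, 154.3 and 164.4 in HMGB2OE libraries, a log2 fold change of 0.80 (SE 0.15, adjusted p = 0.00158). The intronic peak at chr2:239251830-239252331 had 23.6, 35.3 and 50.3 against 82.5, 75.9 and 76.6, a log2 fold change of 1.09 (SE 0.24, adjusted p = 0.00601). At both, all HMGB2OE libraries were above all empty vector libraries, although the empty vector values of the second were widely spread. The third lay between genes, 229.5 kb upstream of the gene start (chr2:239630866-239631367), at 45.7 ± 15.7 and 79.8 ± 12.9 (SD, n = 3 each). Its log2 fold change was 0.75 (SE 0.24, adjusted p = 0.0495), and the adjusted p exceeded the threshold without empty vector replicate 1 (0.152), empty vector replicate 3 (0.148), HMGB2OE replicate 1 (0.0976), replicate 2 (0.0714) or replicate 3 (0.192). Over the whole gene 17 of the 31 peaks were below 0, the median was -0.01, and the strongest promoter peak was at -0.10 (SE 0.08, adjusted p = 0.497).

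**Figure D3:**
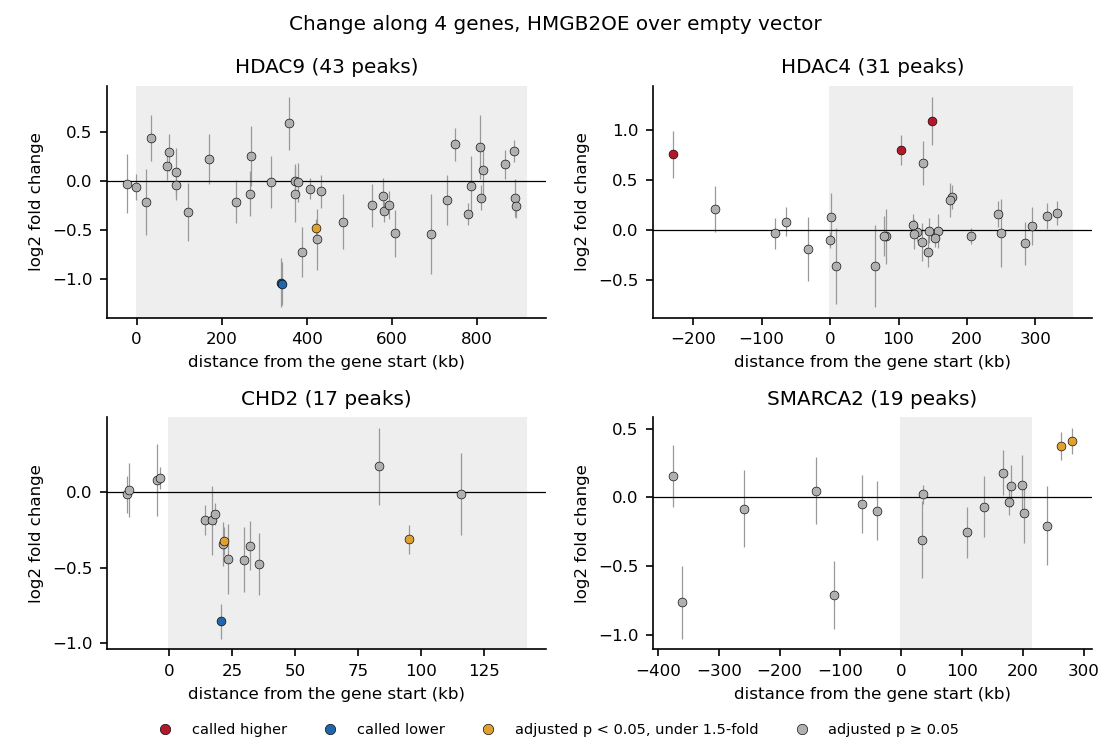
Log2 fold change (HMGB2OE over empty vector, vertical axis, point with SE bar) of the tested peaks of HDAC9, HDAC4, CHD2 and SMARCA2 against distance from the gene start in kb (horizontal axis, gene body in grey). Called falls (blue) lie 340.0 kb into HDAC9 and 20.7 kb into CHD2, 2 of the 3 called rises (red) lie in the HDAC4 body, and both SMARCA2 peaks past the adjusted p (yellow) lie beyond the gene.

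The class I deacetylases had 3 calls, in HDAC8 and in HDAC1 and HDAC2, the paired enzymes of the NuRD, SIN3 and CoREST corepressor complexes. HDAC8, which deacetylates cohesin, rose at an intronic peak (chrX:72381892-72382393) whose centre also lay in an unnamed gene model. This peak was 191.0 kb from the HDAC8 gene start, and CITED1 had the nearest gene start, 75.0 kb away. Counts were 143.1, 130.8 and 196.6 in empty vector and 243.1, 294.4 and 258.9 in HMGB2OE libraries, without overlap, and the log2 fold change was 0.77 (SE 0.14, adjusted p = 0.00107). HDAC1 rose at a peak in its last part, 40.8 kb from its gene start and 3.40 kb from the start of MARCKSL1 (chr1:32332628-32333129). Its counts were 177.9, 180.7 and 195.4 in empty vector and 253.3, 236.9 and 365.9 in HMGB2OE libraries. The log2 fold change of 0.62 (SE 0.14, adjusted p = 0.00725) leaned on HMGB2OE replicate 3, the highest library: without it the value was 0.41 (adjusted p = 0.0767), and with GC-content offsets it was 0.58, under 1.5-fold. HDAC2 fell at an intronic peak (chr6:113997057-113997558) from 133 ± 23.8 to 87.3 ± 10.4 (SD, n = 3 each), a log2 fold change of -0.62 (SE 0.17, adjusted p = 0.0236). That call ended with the DESeq2 Wald test (adjusted p = 0.0596), with GC-content offsets (0.097), and without empty vector replicate 2 (0.206), HMGB2OE replicate 1 (0.0876) or replicate 3 (0.085). HDAC5, another class IIa enzyme, had 2 peaks past the adjusted p under the fold limit, at 0.42 upstream of the gene (adjusted p = 0.0424) and at 0.29 in an intron (adjusted p = 0.0455). Leaving out HMGB2OE replicate 1 gave adjusted p of 0.236 and 0.225, empty vector replicate 1 gave 0.0833 and 0.112, and empty vector replicate 2 gave 0.0615 and 0.0963. The upstream peak also missed the threshold without empty vector replicate 3 (0.124) or HMGB2OE replicate 2 (0.0685), and the intronic one without HMGB2OE replicate 3 (0.123). HDAC6, HDAC10 and HDAC11, of classes IIb and IV, had no peak past the adjusted p among 16.

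Among the demethylases both calls were falls, 1.29% of the 155 tested peaks, where 1.44% of all tested peaks were called lower. KDM6B, which removes the methyl mark laid by Polycomb, fell at an intronic peak 4.6 kb from its gene start (chr17:7838585-7839086). The counts were 183.5, 195.3 and 200.1 in empty vector and 118.2, 133.5 and 126.1 in HMGB2OE libraries, and the log2 fold change was -0.62 (SE 0.14, adjusted p = 0.00517). It was -0.57 without HMGB2OE replicate 1 and -0.56 when centred on its 10 Mb window, each under 1.5-fold. All 6 KDM6B peaks were below 0, and 5 were within 3 kb of a transcript start. KDM7A, a demethylase of repressive histone marks, fell at an intronic peak (chr7:140165346-140165847) from counts of 134.8, 175.5 and 140.4 to 86.7, 87.6 and 105.8. Its log2 fold change was -0.71 (SE 0.16, adjusted p = 0.00679), or -0.57 without empty vector replicate 2 (adjusted p = 0.0801). A stronger KDM7A peak 1.48 kb from its start was at -0.27 (adjusted p = 0.0415, or 0.0853 to 0.228 without empty vector replicate 2 or any HMGB2OE library), while the strongest promoter peak of the gene was at 0.12 (SE 0.08, adjusted p = 0.428). KDM3B, a histone H3 demethylase, had a coding-exon peak at 0.40 (SE 0.10, adjusted p = 0.0176). Without HMGB2OE replicate 1 it was at 0.30 (adjusted p = 0.176), and without empty vector replicate 3 the adjusted p was 0.0526. KDM4C had 35 tested peaks, 18 above and 17 below 0, and 1 past the adjusted p, an intergenic peak at -0.42 (adjusted p = 0.0434, but 0.0692 to 0.235 without any library other than empty vector replicate 1).

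No methyltransferase peak was called. KMT2C, which lays the methyl mark typical of enhancers, had an intronic peak with counts of 571.2, 616.9 and 512.5 in empty vector and 438.6, 394.5 and 481.8 in HMGB2OE libraries, a log2 fold change of -0.38 (SE 0.10, adjusted p = 0.0229). The adjusted p was 0.136 without empty vector replicate 2, 0.089 without HMGB2OE replicate 1 and 0.14 without replicate 2. Another KMT2C peak, between genes 104.0 kb upstream, was at 0.44 (SE 0.13, adjusted p = 0.037), a pass kept only without empty vector replicate 1 (0.0747 to 0.155 without each other library). These peaks of the same gene differed in opposite directions, each without overlap between conditions. KMT2A, KMT2B, KMT2D, KMT2E and the 3 KMT5 genes had no peak past the adjusted p.

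At start sites the differences were small. A promoter peak is a member peak whose centre lay within 3 kb of a protein-coding transcript start of its gene. Of 159 such peaks, 2 (1.26%) passed the adjusted p as higher and 5 (3.14%) as lower, where 1.55% and 1.95% of all promoter peaks did, and 3 of the falls, at CHD2, CHD8 and KDM6B, exceeded 1.5-fold. These 3 are 1.89% of the member promoter peaks, where 0.593% of all promoter peaks were called lower. No member promoter peak was called higher, where 0.684% of all were. These shares rest on few peaks, and the differences were not tested. They also depend on the width of 3 kb, since most member promoter peaks past the adjusted p lay over 1 kb from a start. The median log2 fold change was -0.06 in the members and -0.05 in all promoter peaks. Taking the strongest promoter peak of each gene, 60 genes had one, from 41.6 counts for KDM5A to 4590 for KMT5C, with a median of 1026. HDAC9 was the only one past the adjusted p, and it was past it without each library in turn. CHD1 also passed without empty vector replicate 1, and CHD4 and KDM6A without empty vector replicate 3. Of the 60, 45 were below 0, with a median of -0.10. Over the 15086 genes with a promoter peak, 69.5% of strongest peaks were below 0 with a median of -0.07, 1.39% passed the test as higher and 1.83% as lower. For 57 of the 60 genes the 95% confidence interval of the change lay within 1.5-fold either way. The exceptions were HDAC9, SMARCA1 and KDM5A.

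The order of promoter levels differed by at most 4 ranks between conditions for 56 of the 60 genes. The others were HDAC9, from rank 21 in empty vector to 32 in HMGB2OE cells, KDM7A from 29 to 21, HDAC8 from 36 to 30 and KDM5B from 27 to 22. KMT5C, a methyltransferase of histone H4, stood first with 4559 counts in empty vector and 4622 in HMGB2OE cells, and SMARCA2, HDAC6, KDM4A, KDM4B and KDM2A followed in the same order in both. These counts are per peak of 502 bases, the same width for every gene. SMARCA2 was at 3225 and 3276 counts (log2 fold change 0.02, SE 0.07), and HDAC6, a mainly cytoplasmic deacetylase of tubulin, at 2780 and 2976 (0.10, SE 0.08). Neighbours such as KDM4B and KDM2A, at means of 2662 and 2608, differed by less than the SD of their libraries (127 to 256 counts). The BAF core subunit SMARCB1 was at 273 and 245 counts (-0.16, SE 0.13), and the BAF ATPase SMARCA4 at 708 and 637 (-0.15, SE 0.09). The ISWI ATPases SMARCA5 and SMARCA1 were at -0.15 (SE 0.08) and -0.34 (SE 0.13, adjusted p = 0.139), the latter the lowest of the SMARC family, and SMARCD3 the highest at 0.10 (SE 0.10).

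CHD4, the main NuRD ATPase, had the lowest CHD value, -0.27 (SE 0.11, adjusted p = 0.147, or -0.39 and 0.0446 without empty vector replicate 3), and CHD5 the highest, 0.04 (SE 0.11). The CHD7 promoter was at -0.21 (SE 0.09, adjusted p = 0.155), while its exon peak was above 0. In the KMT family, KMT2A was lowest at -0.19 (SE 0.10) and KMT2C highest at 0.09 (SE 0.09), with KMT2D at -0.17 (SE 0.10). Of the demethylases, KDM1A, the LSD1 enzyme of CoREST, was at -0.05 (SE 0.08), KDM5B at 0.02 (SE 0.08) and KDM6A lowest at -0.27 (SE 0.11, adjusted p = 0.129). KDM6A moved to -0.41 without empty vector replicate 3 (adjusted p = 0.0146) and to -0.14 without empty vector replicate 1 (adjusted p = 0.45). HDAC1 and HDAC2 were at -0.10 (SE 0.08) and -0.20 (SE 0.12), and HDAC8 was highest of its family at 0.11 (SE 0.09). The HDAC8, CHD5 and KDM5B peaks lay far from a transcript start for promoter peaks, at 2799, 2334 and 2295 bases. With all 6 libraries, no promoter named here passed the test.

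For 4 genes the strongest peak near a start was assigned to a neighbour by the rule, because its centre lay in another gene. The KDM5A start had a peak of 671 counts in CCDC77, 0.19 kb away, with a log2 fold change of -0.23 (SE 0.10, adjusted p = 0.15). HDAC3 had one of 1120 counts in RELL2, at -0.13 (SE 0.08, adjusted p = 0.371). The low levels of KDM5A (41.6) and HDAC3 (53.7) therefore describe the assigned peaks and not the start sites. KMT2A had one of 1079 counts at -0.22 (SE 0.08, adjusted p = 0.124), and CHD9NB one of 845 counts at 0.00. With any peak near a start allowed, a choice made after seeing the data, 45 of 60 were again below 0, levels ran from 185 to 4590 counts, and HDAC9 remained the only gene past the adjusted p.

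**Figure D4:**
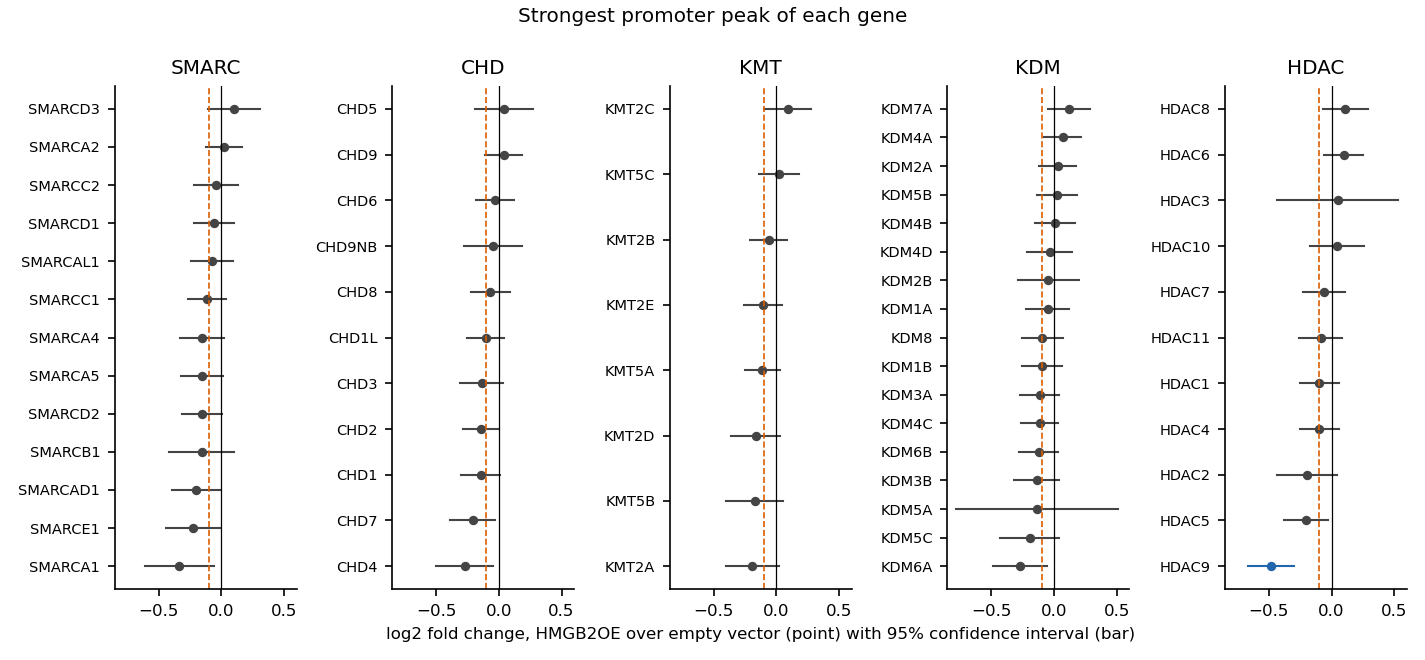
Log2 fold change (HMGB2OE over empty vector, horizontal axis) with 95% confidence interval of the strongest promoter peak of 60 genes, by family. The dashed orange line is their median of -0.10, and HDAC9 (blue) at -0.48 is the only gene past the adjusted p.

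Summed over all peaks of a gene, accessibility differed very little. The sums of the 61 genes had log2 fold changes from -0.16 for HDAC9 to 0.16 for SMARCD3, with a median of 0.00, as over all 18348 genes. HDAC9 was the only gene past an adjusted p under 0.05, and it was lower. Among all genes 5.83% were higher and 3.45% lower by this test. HDAC9 sums were 6271, 5946 and 5831 counts in empty vector and 5409, 5556 and 5128 in HMGB2OE libraries, all lower (SE 0.04, adjusted p = 0.019). Its adjusted p was over the threshold without empty vector replicate 1 (0.0608) or replicate 2 (0.073), and without HMGB2OE replicate 1 (0.068) or replicate 3 (0.09). The next genes, CHD2 and SMARCD3 (adjusted p = 0.0831), a BAF subunit known from heart and muscle development, did not pass. At an unadjusted p under 0.05 there were 11 of 61, a count given without the share of all genes, so nothing is read from it. At the adjusted p the shares were 1.64% of the 61 and 9.28% of all genes. Of the genes with most peaks, HDAC4, CHD1 and KDM4C did not pass.

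Other genes of the same complexes and enzyme classes were described in the same way. A list of 94 such genes, including the ARID, SIN3 and NSD genes, had 764 tested peaks in 93 genes, of which 14 (1.83%) passed the adjusted p as higher and 15 (1.96%) as lower, against 3.44% and 3.03% of all tested peaks, with a median of -0.00. With the fold limit 6 (0.785%) were called higher and 4 (0.524%) lower, against 1.87% and 1.44%. The lowest adjusted p was at an intergenic peak nearest to ARID1B, a BAF subunit, at 135 ± 29.8 and 241 ± 23.6 counts (SD, n = 3 each), a log2 fold change of 0.81 (SE 0.14, adjusted p = 0.000808). DPF3, another BAF subunit, had an intronic peak at 1.24 (SE 0.31, adjusted p = 0.0134), and ARID1A one at 0.62 (adjusted p = 0.0329). GATAD2A of NuRD had intronic peaks at -0.60 and 0.84, and the methyltransferase SMYD3 at -0.98 and 0.61, so that each held a call in both directions. SIN3B, a corepressor scaffold, was at -0.62 (adjusted p = 0.00653), NSD2 at -0.60 (adjusted p = 0.0455), and an intergenic peak nearest to JMJD1C at 0.64 (adjusted p = 0.0439). On summed counts 2 of the 93 genes (2.15%) were higher and 4 (4.3%) lower, against 5.83% and 3.45% of all genes.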

How the data were processed

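ATAC-seq was performed on A375 cells in 3 empty vector and 3 HMGB2OE libraries, grouped by the labels. Per the study's methods and processing notes, reads were trimmed (Trim Galore 0.6.7, cutadapt 4.0), aligned to hg38 with Bowtie 2, deduplicated with Picard, and peaks were called with MACS2 against a melanocyte control and merged into a single list of 502 bp regions without blacklisted ones. The authors deposited raw featureCounts counts per peak and library, with no normalization. Whether reads were shifted for Tn5, and how multiply aligned reads were treated, is not given in the sources used here. Such choices act on all libraries alike but decide which weak peaks are listed.

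Counts were fitted over the whole table with edgeR 4.0.16 in R 4.3.3: filterByExpr, TMM factors (0.975 to 1.02), the quasi-likelihood F test of HMGB2OE against empty vector with no covariate, and Benjamini-Hochberg adjustment over 150117 peaks. For a call, the adjusted p had to be under 0.05 and the change 1.5-fold or more. Standard errors were obtained by dividing the log2 fold change by the square root of F, and intervals are 95% t intervals with the fit's degrees of freedom. Counts were normalised to the mean effective library size. Gene sums were fitted the same way over 18348 genes, without a fold limit. Genes came from GENCODE release 44, on the same build, and peak sequences from hg38. The pipeline was tested on simulated data. Libraries of the same condition differed by more than sampling noise, so none was merged.

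Alternatives were other scalings, DESeq2 1.42.0, other filters, a replicate block, offsets for GC content (loess, span 0.3) alone and with the block, centring on 10 Mb windows, leaving out each library, other fold limits, assignment to the nearest start and a promoter width of 1 kb. The members, lists and tests were chosen with earlier results of these data known. Named peaks are all called ones and those next by adjusted p up to 20, strongest promoter peaks of 13 preset genes and of the extremes of each family, genes past the test on sums or with most peaks, and partner genes with a called peak. Further peaks past the adjusted p, and windows along genes, were named after their values were seen. No deposited column was left unmatched. One marker gene checked is not reported here.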

Additional observations from a re-analysis of the deposited data

How the results depend on the processing

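The called member peaks (6 higher, 8 lower) kept within 1.5 times their counts under other scalings, DESeq2, other filters, GC-content offsets, 10 Mb centring, assignment to the nearest start and without CHD9NB (4 to 6 higher, 7 or 8 lower). With assignment to the nearest start, only 10 of the 14 main calls stayed among the members. The called peaks of SMARCC1, CHD8, HDAC1 and HDAC8 then went to CSPG5, SUPT16H, MARCKSL1 and CITED1. Under the lower fold limit the calls were 14 and 13, and with none 15 and 15. Without 1 library in turn, 3 to 7 were called higher (3 without HMGB2OE replicate 3) and 6 to 8 lower. With no fold limit, 6 to 11 were higher and 7 to 15 lower (6 without HMGB2OE replicate 1, 9 and 7 without empty vector replicate 2, 10 without HMGB2OE replicate 3, 9 lower without HMGB2OE replicate 1 or 2). Of promoter peaks, 1 in place of 7 passed within 1 kb, and 4 to 9 without 1 library (4 without empty vector replicate 2). Genes past the test on sums numbered 2 with library size only, 2 with the DESeq2 Wald test, 3 with assignment to the nearest start, and 0 to 4 without 1 library (0 without empty vector replicate 1 or 2 or HMGB2OE replicate 3, 4 without empty vector replicate 3). The causes were not tested. Correlations of same-numbered libraries' deviations were -0.0884, 0.191 and 0.128, so the numbers were not taken to pair them; the replicate block gave 8 higher and 8 lower calls, 20 and 18 with no fold limit, and 4 gene sums. Together with GC-content offsets it gave 5 and 7 calls, and 21 and 12 with no fold limit. Values near 0 changed sign: the KDM4C sum with library size only (-0.0011), the CHD9 promoter with 10 Mb centring (-0.0049), and, without 1 library, promoters of SMARCA2 (-0.0389 to 0.0590), CHD5 (-0.0703 to 0.1407), CHD9 (-0.0096 to 0.0751), KDM5A (-0.4510 to 0.2724), KMT5C (-0.0698 to 0.0973), HDAC3 (-0.0361 to 0.2113), CHD9NB (-0.1145 to 0.0523), KDM1A (-0.1026 to 0.0045), KDM5B (-0.0042 to 0.0399) and KMT2C (-0.0036 to 0.1500), and sums of KDM4C (-0.0196 to 0.0293) and HDAC4 (-0.0218 to 0.0867). GC-content offsets and centring were not run on sums. Precision was lowest in the weakest peaks.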
